A study of Mus musculus with 24 samples.

Results

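The 6 genes described here encode transcription factors of the epithelial-to-mesenchymal transition, Twist1, Twist2, Snai1, Snai2, Zeb1 and Zeb2, out of 22208 protein-coding genes in the mouse annotation (GENCODE vM1, build mm9). They were taken by name, and each was read over its body with 10 kb on each side. The data are 17 ChIP-seq peak lists of 3 kinds of cultured mouse fibroblasts, made to ask how the homeobox factor Prrx1 acts on chromatin in activated fibroblasts. There were 7 lists of H3K4me3 (trimethylated lysine 4 of histone H3), 7 of H3K27ac (acetylated lysine 27) and 3 of Prrx1 itself, with 1 list per group and 24 samples in all, 7 of them inputs.

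Mouse embryonic fibroblasts (MEF) were prepared from C57BL/6 embryos at days 10 to 13, wound-healing fibroblasts (wound fibroblasts here) from dorsal skin of C57BL/6 mice at day 10 after wounding. The cancer-associated fibroblasts, MMTV-CAF, came from FVB/NJ mice whose mammary tumours are driven by MMTV-PyMT. E6 and E7 of a papillomavirus immortalised every culture, controls included. Each kind was present as WT, for which the study names a non-targeting guide RNA in MMTV-CAF and wound fibroblasts, and as SG, in which Cas9 and a guide RNA disrupted Prrx1. MEF had a further genotype, KI, which the labels do not spell out and which was read here as the lacZ insertion in the homeodomain exon of Prrx1. Prrx1 ChIP was analysed in WT cells only. Strain and kind of fibroblast cannot be told apart between MMTV-CAF and the other cells, and neither the number of animals behind a culture nor clonality is given.

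Twist, Snail and Zeb proteins bind E-box sequences and repress epithelial genes such as Cdh1, so that epithelial cells loosen their junctions and turn mesenchymal. Fibroblasts are mesenchymal already and commonly keep some of these factors on. H3K4me3 marks active promoters, and wide H3K4me3 regions are typical of genes that define a cell's identity. H3K27ac marks active promoters and enhancers.

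The H3K27ac lists held 29325 to 61603 summits, the H3K4me3 lists 13125 to 29166 regions and the Prrx1 lists 3048 to 8000 summits. The depth behind them is unknown, and list strength differed: H3K27ac summits had a median -log10 p of 11.9 (MEF KI) or 15.2 to 21.2 (the other 6 lists), and that of H3K4me3 regions ran from 7.51 in MMTV-CAF WT to 28.6 in MEF WT. The targeted gene, Prrx1, kept an H3K4me3 region of 4558 to 15484 bp and 12 to 27 H3K27ac summits in all 7 lists of each mark, which says nothing of the protein. Of 9 fibroblast markers, 4 to 8 had an H3K4me3 region at a start site in a list, against 0 or 1 of 6 epithelial, 0 or 1 of 4 endothelial and 0 of 5 immune markers. Epcam and the keratins Krt8, Krt18, Krt14 and Krt5 had no such region in any list, nor had Ptprc, Pecam1, Cdh5 or Tek, while Lum was the fibroblast marker without one. Kdr, an endothelial receptor, had a region in 6 of 7 lists, of 460 to 1161 bp in the MEF lists and MMTV-CAF WT and of 5528 (WT) and 6173 bp (SG) in wound fibroblasts, where its summed H3K27ac was 108 (WT) and 217 (SG). Cdh1, the epithelial cadherin, had one of 333 to 783 bp in 4 lists. H3K27ac summed over a marker list ran from 342 to 2321 (fibroblast), from 7.81 to 256 (epithelial), from 63.0 to 286 (endothelial) and from 53.7 to 318 (immune), and the part of other cells in the results was not tested.

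All 6 genes carried H3K4me3 at or beside a start site in all 7 lists, and these regions were wide. In MEF WT the widths at a start site were 7944 bp (Twist1), 5737 bp (Twist2), 5195 bp (Zeb2), 4533 bp (Snai1), 3906 bp (Zeb1) and 3603 bp (Snai2), against a median of 2243 bp over the 11823 genes with such a region. Twist1 stood above 99.6% of those genes and Snai2 above 85.7%. In MMTV-CAF WT all 6 were over 4 kb, a width that 15.2% of all 22208 genes had there. In the other lists the number over 4 kb was 4 (MEF WT), 3 (MEF KI), 5 (MEF SG), 6 (MMTV-CAF SG), 3 (wound fibroblast WT) and 5 (wound fibroblast SG), where the shares of all genes were 5.02%, 1.49%, 3.6%, 12.8%, 4.84% and 8.59%. The widest region of any member was that of Zeb2 in MMTV-CAF, 15390 bp in WT and 15303 bp in SG.

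**Figure D1:**
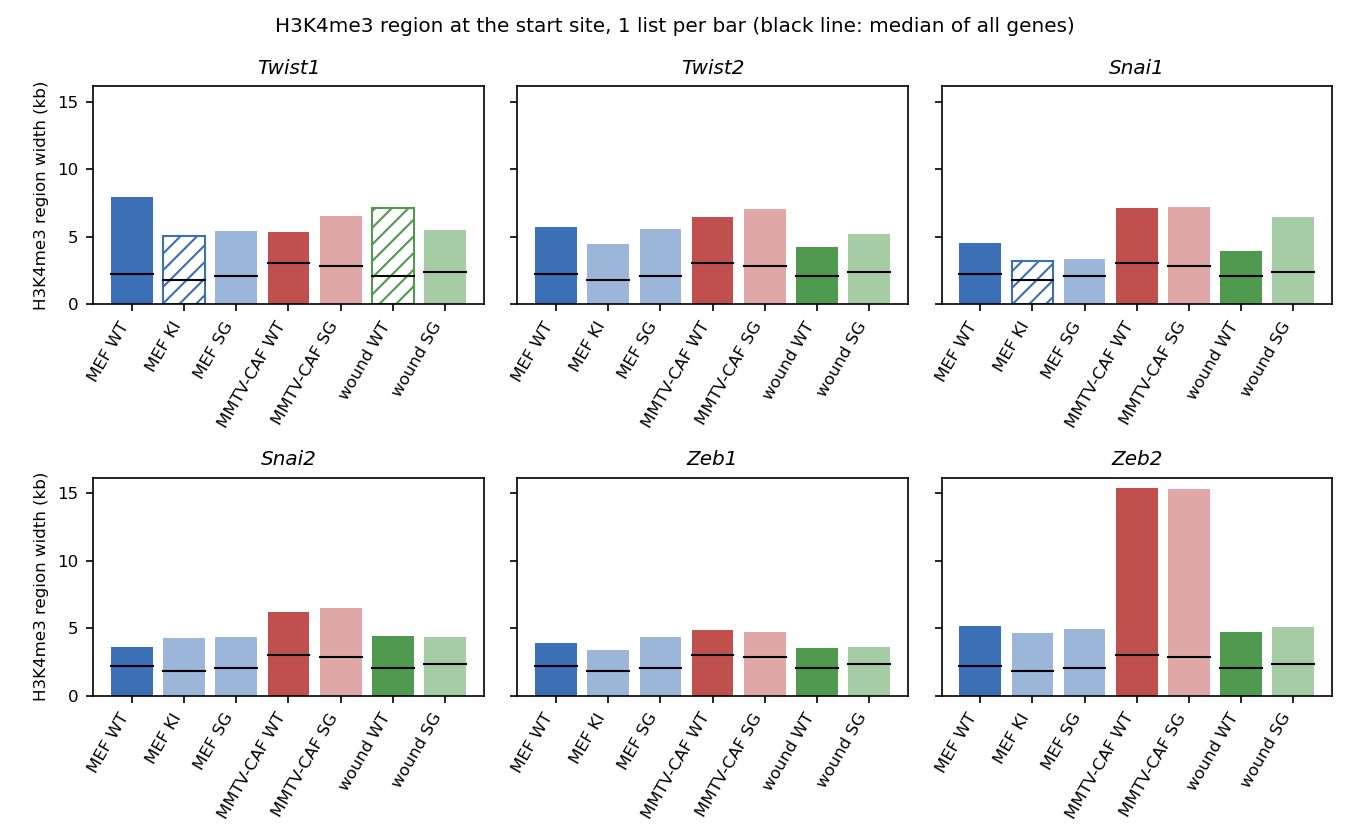
Width in kb of the H3K4me3 region at a start site of each gene (y axis) in the 7 lists (x axis), 1 list per bar, with full colour for WT, pale colour for KI and SG, and a black line at the median of all genes with a region. Hatched bars show 3 cases in which the region stopped just short of the start base (merged width within 500 bp). Zeb2 stands at 15390 (WT) and 15303 bp (SG) in MMTV-CAF, while its other 5 lists lie between 4626 and 5195 bp.

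Snai1, the Snail zinc-finger repressor (ENSMUSG00000042821.7, mm9 chr2:167363695-167368314, plus strand), held an H3K4me3 region that began at its start site and ran downstream over the gene. In MEF WT it reached from -64 to +4468 bp, in MEF SG from -62 to +3279 bp, in wound fibroblast WT from -83 to +3838 bp and in wound fibroblast SG from -89 to +6346 bp. In MEF KI it began at +21 bp and ended at +3243 bp, so that no region covered the start base in that list. The MMTV-CAF regions were the widest, -528 to +6596 bp in WT and -658 to +6540 bp in SG. The fold over input at the start site was 5.51 in MEF WT, 4.98 in MEF SG, 10.7 (WT) and 11.5 (SG) in MMTV-CAF, and 8.20 (WT) and 8.12 (SG) in wound fibroblasts.

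The strongest H3K27ac summit of Snai1 lay downstream of the gene and not at its promoter. It stood 5580 bp from the start in MEF WT (-log10 p 67.6), 5714 bp in MMTV-CAF WT (90.7) and 5744 bp in wound fibroblast WT (47.8), which is past the 4620 bp gene body. A summit within 500 bp of this position recurred in all 7 lists. MEF WT and MEF SG had 0 summits within 2 kb of the Snai1 start, whereas MMTV-CAF WT and wound fibroblast WT had 2 each, with summed scores of 96.8 and 43.1. Over the whole window, which also holds the pseudogene Gm11474, the number of summits was 3, 4 and 3 in MEF WT, KI and SG, 9 (WT) and 6 (SG) in MMTV-CAF, and 6 (WT) and 4 (SG) in wound fibroblasts. Their summed -log10 p was 99.9, 47.1 and 153 in the MEF lists, 319 (WT) and 240 (SG) in MMTV-CAF, and 127 (WT) and 152 (SG) in wound fibroblasts. The level was highest in MMTV-CAF WT, 3.18-fold that of MEF WT where the median gene stood at 1.25-fold.

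Snai1 was 1 of 3 members with a Prrx1 summit in the wound fibroblast list. It had 2 summits, one at -64 bp from the start (-log10 p 5.41) and one at +5182 bp (5.39), both below the list median of 6.32. The promoter summit lay inside the H3K4me3 region of both wound fibroblast lists and 237 bp from an H3K27ac summit in WT and 210 bp in SG. The downstream summit lay 562 bp from an H3K27ac summit in WT and 581 bp in SG. In MMTV-CAF the closest Prrx1 summit to the start of Snai1 was 34104 bp away, and in MEF 359599 bp. The promoter (mm9 chr2:167363445-167363744, plus strand, 250 bases before the start to 49 after) is shown because it holds that summit and an E-box, the kind of site these factors bind. Capitals mark CACCTG, which is CAGGTG on the other strand, at -126 to -121 bp.
Snai1 promoter: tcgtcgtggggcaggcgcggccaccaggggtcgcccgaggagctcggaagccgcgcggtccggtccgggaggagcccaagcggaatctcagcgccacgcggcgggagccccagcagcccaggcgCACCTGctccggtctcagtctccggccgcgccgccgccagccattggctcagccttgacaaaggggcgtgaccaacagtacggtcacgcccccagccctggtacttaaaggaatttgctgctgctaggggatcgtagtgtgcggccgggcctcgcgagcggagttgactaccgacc
CAGGTG on either strand was present in 19.8% of 21685 promoters of the same length, and in 8.7% of the 5540 wound-healing Prrx1 windows of 201 bases. Neither TAATTA, the core that paired-type homeodomains bind, nor TGANTCA, the AP-1 site, was found in this promoter, and none of the 3 motifs lay within 100 bp of the downstream summit.

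**Figure D2:**
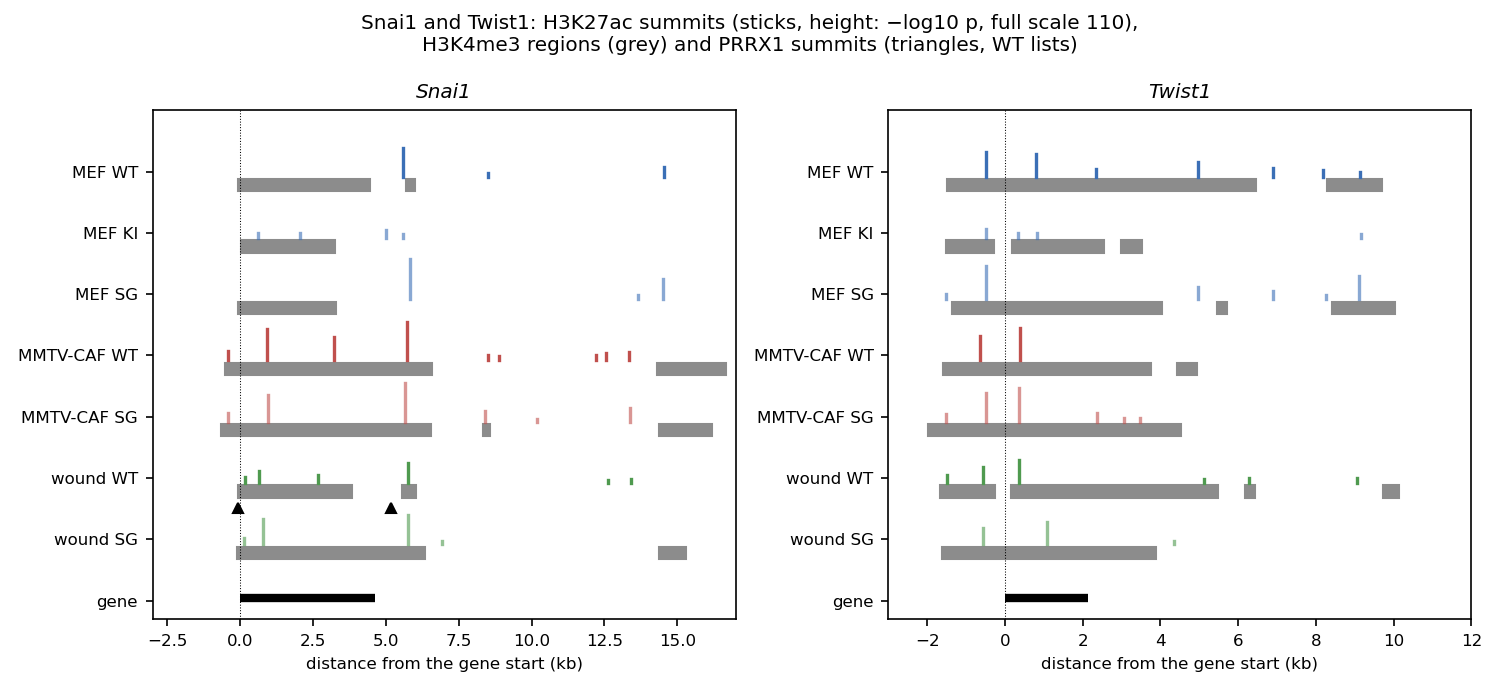
Distance from the gene start in kb (x axis) for Snai1 and Twist1, 1 row per cell kind and genotype, with H3K27ac summits as sticks (height by -log10 p), H3K4me3 regions in grey and Prrx1 summits of WT lists as triangles. The strongest H3K27ac stick of Snai1 stands past the end of the gene in all 7 lists, and Prrx1 triangles appear in wound fibroblast WT only.

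Snai2, the Slug repressor (ENSMUSG00000022676.6, mm9 chr16:14705945-14709488, plus strand), had 1 to 3 H3K27ac summits per list and no other gene in its window. Its H3K4me3 widths were 3603, 4301 and 4359 bp in MEF WT, KI and SG, 6182 (WT) and 6521 bp (SG) in MMTV-CAF, and 4424 (WT) and 4375 bp (SG) in wound fibroblasts. The fold was 8.51, 5.72 and 7.48 in MEF, 10.5 (WT) and 11.0 (SG) in MMTV-CAF, and 6.83 (WT) and 8.67 (SG) in wound fibroblasts. Snai2 had the highest fold of the members in MEF WT.

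H3K27ac at Snai2 gathered at the start of the gene. The strongest WT summit stood at +232 bp (MEF), +213 bp (MMTV-CAF) and +228 bp (wound fibroblasts), with -log10 p of 51.9, 61.1 and 27.6. The numbers of summits were 1, 2 and 3 in MEF WT, KI and SG, 3 (WT) and 2 (SG) in MMTV-CAF, and 2 (WT) and 1 (SG) in wound fibroblasts. The summed scores were 51.9, 43.1 and 170 in MEF, 87.4 (WT) and 61.2 (SG) in MMTV-CAF, and 47.8 (WT) and 41.0 (SG) in wound fibroblasts. MEF SG was the high list, with 3.23-fold the WT level, and the other lists lay between 41.0 and 87.4. The MMTV-CAF WT summit at +213 bp had no SG summit closer than 877 bp, where one scored 54.1. No list placed a Prrx1 summit in the Snai2 window, and the closest to its start was 228715 bp (MEF), 254495 bp (MMTV-CAF) and 228856 bp (wound fibroblasts) away.

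Twist1, a basic helix-loop-helix factor of mesoderm and neural crest (ENSMUSG00000035799.5, mm9 chr12:34642536-34644682, plus strand), had the widest H3K4me3 region of the members in MEF WT. Its width was 7944 bp in MEF WT, 5413 bp in MEF SG, 5358 (WT) and 6509 bp (SG) in MMTV-CAF, and 5503 bp in wound fibroblast SG, with folds of 5.89, 6.10, 10.5, 11.6 and 9.06. In MEF KI and wound fibroblast WT the domain was split at the start base. The MEF KI regions spanned -1518 to -278 bp, +184 to +2547 bp and +2989 to +3516 bp, and the wound fibroblast WT regions beside the start -1661 to -249 bp and +159 to +5471 bp. Joining regions up to 500 bp apart gave 5035 and 7133 bp in these lists. Of the 12982 genes with no region over a start site in MEF KI, 14.5% had a region within 500 bp, against 5.74% of 10026 in wound fibroblast WT and 3.3% to 4.97% in the other 5 lists.

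The 300 bases over the Twist1 start are shown because both gaps cover the start base (mm9 chr12:34642286-34642585, plus strand, from 250 bases before the start to 49 after). They hold only part of each gap. They are 66.0% G and C, against a median of 55.7% over promoters, and hold none of the 3 motifs, so no letter is in capitals.
Twist1 promoter: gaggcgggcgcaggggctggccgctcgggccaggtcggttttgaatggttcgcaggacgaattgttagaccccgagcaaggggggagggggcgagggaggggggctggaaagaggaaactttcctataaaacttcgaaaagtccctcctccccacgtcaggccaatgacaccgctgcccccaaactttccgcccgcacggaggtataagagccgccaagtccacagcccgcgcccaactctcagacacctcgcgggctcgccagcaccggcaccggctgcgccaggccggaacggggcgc
A summit of H3K27ac recurred in all 7 lists -478 to -632 bp from the start, with -log10 p of 59.0, 21.0 and 78.2 in MEF WT, KI and SG, 57.5 (WT) and 68.5 (SG) in MMTV-CAF, and 38.0 (WT) and 39.5 (SG) in wound fibroblasts. A second cluster lay downstream of the gene: MEF WT had 4 summits from +4957 to +9142 bp, scored 11.0 to 33.5, and MMTV-CAF WT had 0 beyond +395 bp. The window held 7, 4 and 6 summits in MEF WT, KI and SG, 2 (WT) and 6 (SG) in MMTV-CAF, and 6 (WT) and 3 (SG) in wound fibroblasts. Summed scores were 212, 51.0 and 203 in MEF, 136 (WT) and 203 (SG) in MMTV-CAF, and 144 (WT) and 99.7 (SG) in wound fibroblasts. No Prrx1 summit fell in the Twist1 window. The closest one was 82516 bp from the start in MMTV-CAF, 108334 bp in wound fibroblasts and 262377 bp in MEF.

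Twist2, the relative of Twist1 also known as Dermo1 (ENSMUSG00000007805.3, mm9 chr1:93698038-93744605, plus strand), had H3K4me3 over its start in all 7 lists. The widths were 5737, 4494 and 5579 bp in MEF WT, KI and SG, 6495 (WT) and 7065 bp (SG) in MMTV-CAF, and 4223 (WT) and 5226 bp (SG) in wound fibroblasts. The fold was 6.51, 3.17 and 6.25 in MEF, 10.9 (WT) and 13.9 (SG) in MMTV-CAF, and 8.20 (WT) and 8.13 (SG) in wound fibroblasts. MEF KI was the lowest in fold, in a list whose median fold at start sites was 3.77 against 5.61 in MEF WT.

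H3K27ac at Twist2 lay mainly around the promoter and in the intron. MEF WT had 10 summits, with the strongest at +485 bp (-log10 p 60.4). A further pair at +14822 and +15849 bp scored 21.8 and 23.7. Summits past the end of the gene were listed at +56399 bp in MEF WT (11.6), at +49370 (10.1) and +50126 bp (9.41) in MMTV-CAF WT, and at +56325 bp in wound fibroblast WT (10.8). In MEF KI and wound fibroblast SG the strongest summit was the intronic one, at +15746 bp (20.8) and +15749 bp (55.0). The number of summits was 10, 6 and 9 in MEF WT, KI and SG, 13 (WT) and 8 (SG) in MMTV-CAF, and 8 (WT) and 6 (SG) in wound fibroblasts. The sums were 276, 73.1 and 247 in MEF, 207 (WT) and 287 (SG) in MMTV-CAF, and 125 (WT) and 178 (SG) in wound fibroblasts. The wound fibroblast list had 1 Prrx1 summit in this intron, at +15171 bp and with a -log10 p of 4.50, above 9.09% of its list. It lay 455 bp from an H3K27ac summit in WT and 578 bp in SG, and its 201 bases held none of the 3 motifs.

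Zeb2, a zinc-finger and homeodomain repressor (ENSMUSG00000026872.8, mm9 chr2:44839154-44972915, minus strand), differed most between kinds of fibroblasts. Its 10 annotated start sites lie between 44965897 and 44972915. In MEF and wound-healing fibroblasts the promoter carried 2 separate H3K4me3 regions. In MEF WT these spanned -425 to +1471 bp from the gene start and +3946 to +9140 bp, and in wound fibroblast WT -197 to +936 bp and +4253 to +8987 bp. In MMTV-CAF a single region took their place, from -1045 to +14344 bp in WT and from -1282 to +14020 bp in SG, with folds of 8.52 and 9.21. That width stood above 99.8% of the genes with a region in each of these lists. The widest region was 5195, 4626 and 4964 bp in MEF WT, KI and SG, and 4735 (WT) and 5086 bp (SG) in wound fibroblasts, with folds of 6.22, 3.81, 7.70, 7.26 and 9.29.

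H3K27ac was also highest in MMTV-CAF. MMTV-CAF WT had 26 summits in the Zeb2 window and MMTV-CAF SG 19, against 8 in each MEF list and 4 (WT) and 6 (SG) in wound fibroblasts. The summed scores were 618 and 541 in MMTV-CAF, 254, 82.4 and 285 in MEF WT, KI and SG, and 61.1 (WT) and 143 (SG) in wound fibroblasts. The ratio of MMTV-CAF WT to wound fibroblast WT was 9.96, where the median gene stood at 1.88 and 69.8% of 14149 genes were past 1.5-fold. Of the 26 summits, 21 had no counterpart within 500 bp in MEF WT or wound fibroblast WT. By number, most of the further summits lay inside the gene body beyond the first 10 kb, which held 18 summits in MMTV-CAF WT (summed score 244) and 6 in MMTV-CAF SG (88.6), 1 in MEF WT and 0 in MEF KI, MEF SG and both wound fibroblast lists. In summed score the first 10 kb, with the 10 kb before the start, was also highest in MMTV-CAF, at 320 (WT) and 388 (SG) against 185, 56.4 and 222 in MEF WT, KI and SG, and 55.8 (WT) and 110 (SG) in wound fibroblasts. A summit 139569 to 139709 bp from the start, past the end of the gene, recurred in all 7 lists. The non-coding gene Gm13476 runs antisense over the promoter of Zeb2 and the microRNA gene AL929120.1 lies in its body, and signal of these genes cannot be told apart from that of Zeb2.

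**Figure D3:**
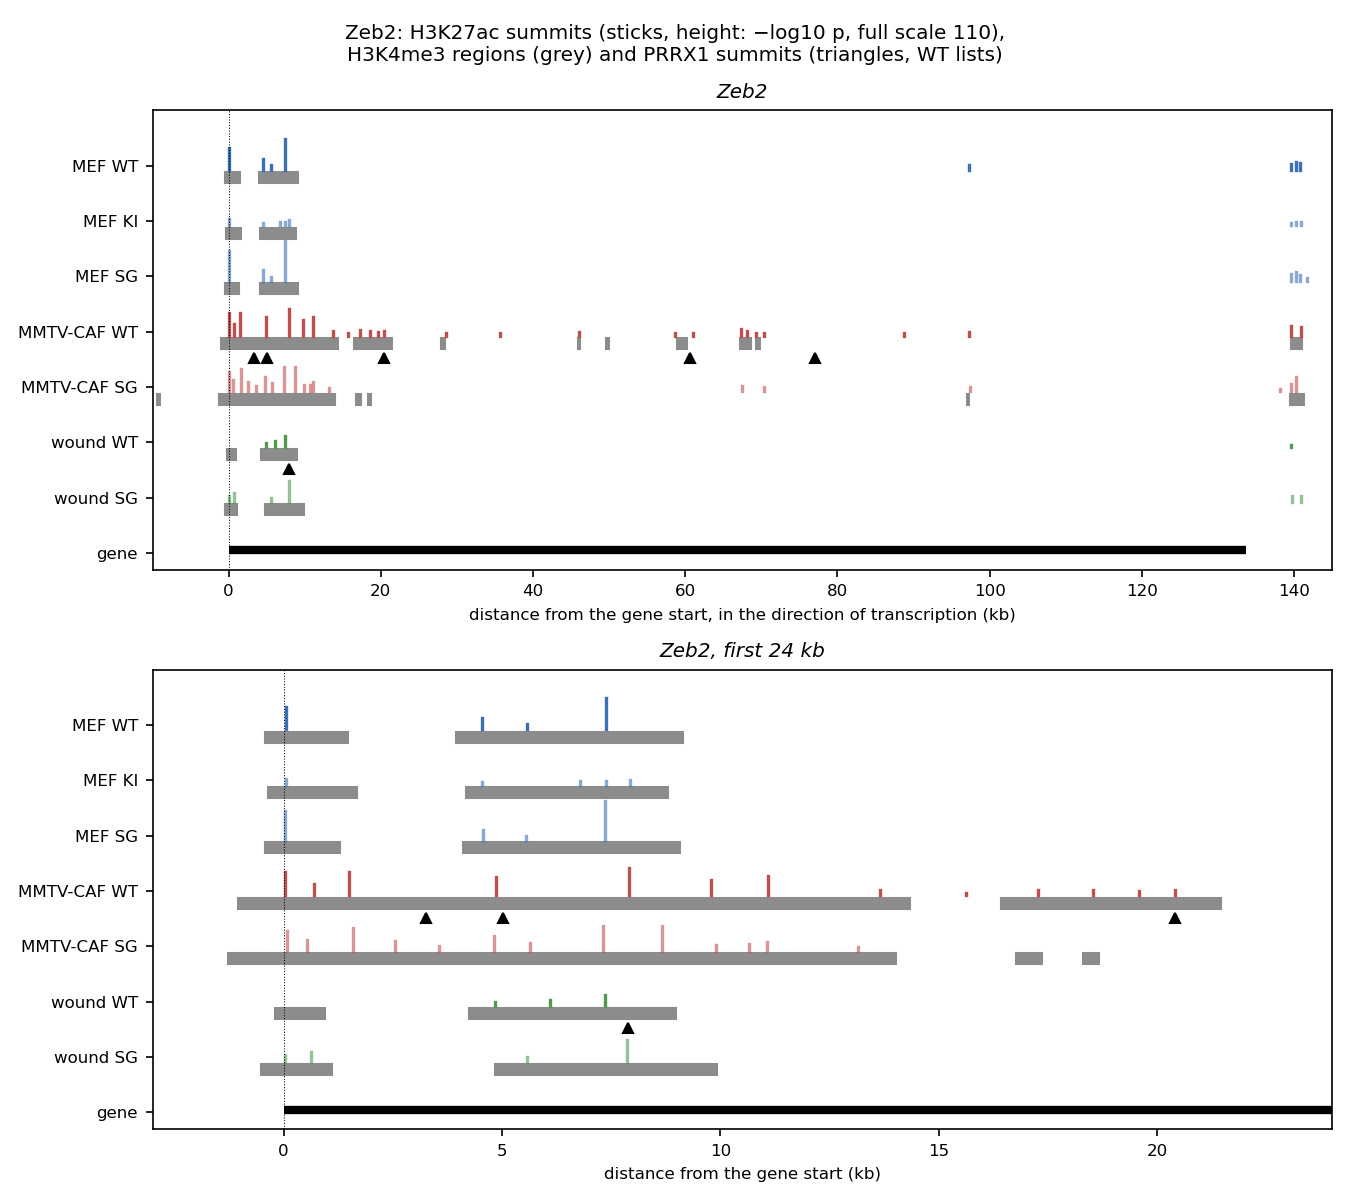
Distance from the Zeb2 gene start in kb (x axis, upper panel the whole window, lower panel its beginning), 1 row per cell kind and genotype, with H3K27ac summits as sticks (height by -log10 p), H3K4me3 regions in grey and Prrx1 summits of WT lists as triangles. The 18 H3K27ac summits of the inner gene body in MMTV-CAF WT and the single 15390 bp H3K4me3 region set this row apart from the MEF and wound-healing rows.

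Prrx1 summits were also most frequent at Zeb2 in MMTV-CAF, with 5 in the window. The window of Zeb2 is long. Of all genes 0.590% had 5 or more there, and of 1650 genes with a window at least as long 4.91% had 5 or more and 43.0% had 1 or more. The summits stood +3270 bp from the gene start (-log10 p 10.8), +5031 bp (8.53), +20395 bp (3.90), +60627 bp (7.61) and +77010 bp (7.82). The first 2 lay inside the H3K4me3 region of WT and SG, 617 and 852 bp from an annotated start site, and the strongest ranked 1274 of 8000. H3K27ac lay 1587 bp from the summit at +3270 bp in WT and 277 bp in SG. For that at +5031 bp the distances were 174 and 217 bp. The one at +20395 bp, in an exon of a transcript with no coding annotation there, lay 4 bp from an H3K27ac summit and inside a 5051 bp H3K4me3 region in WT. In SG the closest H3K27ac summit was 7237 bp away, and regions of 362 and 586 bp were left of that H3K4me3 region. Its score was among the lowest, above 4.43% of the list. The summit at +60627 bp was 362 bp from H3K27ac in WT and 6793 bp in SG, and that at +77010 bp 6650 bp in WT and 6661 bp in SG.

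The wound fibroblast list placed 1 Prrx1 summit at Zeb2, at +7877 bp (-log10 p 6.32), inside the inner H3K4me3 region and 2846 bp from the closest MMTV-CAF summit. H3K27ac lay 510 bp from it in WT and 7 bp in SG. The MEF list had 0 Prrx1 summits at Zeb2, the closest being 250650 bp from a start site. The MMTV-CAF windows of 100 bases to each side of the summit are shown because 4 of 5 hold the homeodomain core TAATTA (capitals), which 35.4% of 7664 MMTV-CAF windows and 4.65% of promoters held. In the remaining window the capitals mark the E-box CAGGTG, held by 9.77% of the windows. All are on the plus strand of mm9, opposite to transcription of Zeb2: chr2:44969545-44969745, chr2:44967784-44967984, chr2:44952420-44952620, chr2:44912188-44912388 and chr2:44895805-44896005 in order.
Zeb2 +3270 bp: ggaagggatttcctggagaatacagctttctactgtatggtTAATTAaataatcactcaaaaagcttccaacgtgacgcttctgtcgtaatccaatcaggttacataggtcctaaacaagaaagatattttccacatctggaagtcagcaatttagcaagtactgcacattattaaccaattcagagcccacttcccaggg
Zeb2 +5031 bp: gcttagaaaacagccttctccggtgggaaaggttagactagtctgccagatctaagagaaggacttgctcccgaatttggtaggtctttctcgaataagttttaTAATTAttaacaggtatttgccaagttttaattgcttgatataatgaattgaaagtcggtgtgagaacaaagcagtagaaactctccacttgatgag
Zeb2 +20395 bp: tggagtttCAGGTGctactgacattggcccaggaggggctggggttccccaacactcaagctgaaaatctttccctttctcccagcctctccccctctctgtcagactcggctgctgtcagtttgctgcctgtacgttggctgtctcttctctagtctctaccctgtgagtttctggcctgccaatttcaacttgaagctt
Zeb2 +60627 bp: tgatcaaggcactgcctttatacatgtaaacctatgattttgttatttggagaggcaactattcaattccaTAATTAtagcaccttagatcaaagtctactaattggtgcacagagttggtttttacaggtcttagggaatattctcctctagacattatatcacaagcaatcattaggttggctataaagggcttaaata
Zeb2 +77010 bp: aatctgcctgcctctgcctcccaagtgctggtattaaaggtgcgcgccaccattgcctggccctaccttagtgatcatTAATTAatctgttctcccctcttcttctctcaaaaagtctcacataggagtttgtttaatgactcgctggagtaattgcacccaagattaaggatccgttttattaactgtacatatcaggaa
Relative to the summit, on the printed strand, TAATTA began at base -59 in the window at +3270 bp, at 4 in that at +5031 bp, at -29 in that at +60627 bp and at -22 in that at +77010 bp. The MMTV-CAF windows were 34.8 to 53.2% G and C. The wound fibroblast window was 72.6% G and C and held none of the 3 motifs, in a list where TAATTA was present in 41.7% of 5540 windows. It is shown for comparison (mm9 chr2:44964938-44965138, plus strand).
Zeb2 +7877 bp: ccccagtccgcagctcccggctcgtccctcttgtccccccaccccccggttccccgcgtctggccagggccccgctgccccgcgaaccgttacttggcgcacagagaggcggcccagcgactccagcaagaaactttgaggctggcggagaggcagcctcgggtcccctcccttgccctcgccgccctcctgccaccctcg

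Over all 6 genes the MEF list had 0 Prrx1 summits in the windows, the MMTV-CAF list 8 at 2 genes and the wound fibroblast list 4 at 3 genes. Of all 22208 genes, 7.06%, 22.2% and 16.8% had a summit in these lists. Among the member summits of MMTV-CAF, 4 of 8 lay within 500 bp of an H3K27ac summit in WT, against 45.4% of the whole list, and 1 of these 4 still had one within 500 bp in SG, against 72.9%. In wound-healing fibroblasts the counts were 2 of 4, against 33.2%, and 1 of 2, against 74.1%. These counts start from WT and leave out summits with H3K27ac within 500 bp in SG alone. Such were Zeb2 at +3270 bp in MMTV-CAF (1587 bp in WT, 277 bp in SG) and at +7877 bp in wound fibroblasts (510 and 7 bp). Of those past 500 bp in SG only, Zeb1 at +148693 bp went from 373 to 650 bp and Twist2 from 455 to 578 bp. The others, at Zeb2, lay 6793 and 7237 bp away in SG. No Prrx1 summit of a member was shared between lists within 500 bp.

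With Prrx1 disrupted, the median H3K4me3 width over the members stayed close to that of WT. Over the 6 genes the median log2 ratio of SG to WT was -0.05 in MEF and 0.05 in MMTV-CAF, and over the 5 comparable genes it was 0.10 in wound fibroblasts. Over the 4 comparable genes it was -0.18 for MEF KI. The medians over all genes were, in the same order, -0.09, -0.05, 0.18 and -0.33. Of the genes with a width in both lists, none was lower past 1.5-fold in these 4 comparisons, where the shares of all genes lower were 25.1% in MEF KI, 5.04% in its SG counterpart, 5.86% for MMTV-CAF and 1.72% for wound fibroblasts. Twist1 and Snai1 had no width ratio in MEF KI. With regions joined within 500 bp of a start, Twist1 went from 7944 to 5035 bp there, a ratio of 0.634 and so lower past 1.5-fold, as were 30.0% of genes on that measure, and Snai1 from 4533 to 3223 bp, a ratio of 0.711. Snai1 in wound fibroblasts was the only member higher past 1.5-fold in these 4 comparisons, from 3922 to 6436 bp, as were 11.6% of all genes there and 0.514% (MEF KI), 0.599% (MEF SG) and 4.97% (MMTV-CAF SG) elsewhere. After division by the all-gene median its log2 ratio was 0.53, and 0 members passed 1.5-fold. The shares of all genes then were 11.3% lower and 1.61% higher (MEF KI), 3.77% and 0.899% (MEF SG), 4.81% and 5.6% (MMTV-CAF SG), and 3.27% and 6.07% (wound fibroblast SG). In that comparison the second WT region, +5561 to +6037 bp, lay within the SG region. The largest fall in MEF SG was that of Twist1, from 7944 to 5413 bp, a log2 ratio of -0.55, higher than in 5.68% of genes.

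H3K27ac was compared in the same way. The member median lay near the all-gene median in MEF KI and below it in the 3 SG comparisons. In MEF KI all 6 summed scores were lower than in WT, 5 of them past 1.5-fold, where 90.3% of all genes were lower and 3.04% higher, and the all-gene median log2 ratio was -1.82. The member median was -1.76. After division by the all-gene ratio, Snai1 (0.75) and Snai2 (1.55) lay past 1.5-fold on the high side, as did 26.2% of genes, and 0 members on the low side, where 30.1% of genes lay. Divided by the ratio of the median gene with a summit in both lists, Snai1 was at 0.57, short of 1.5-fold. By number of summits Snai1 (3 in WT, 4 in KI) and Zeb2 (8 in each) were not lower. KI was the weakest H3K27ac list, and the part of list strength in these falls was not tested.

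In MEF SG the sums of Snai1 and Snai2 were higher past 1.5-fold, as were those of 43.7% of genes, 0 were lower, where 6.02% of genes were, and the sums of Twist1 and Twist2 stood at 0.956 and 0.894 of WT. The Snai1 log2 ratio, 0.61, was 0.57 with 10 added to each sum, short of 1.5-fold, and the number of summits was 3 in both lists. The member median was 0.26 and the all-gene median 0.50. Relative to the latter, Snai2 was at 1.19, above 93.1% of genes, and Twist2 at -0.66, with 16.1% of genes past 1.5-fold on the high side and 15.9% on the low side. In MMTV-CAF SG 0 members passed 1.5-fold in either direction, where 9.28% of genes were lower and 29.9% higher. The member median was -0.04 and the all-gene median 0.26. Relative to it, Snai1 (-0.67) and Snai2 (-0.77) were low past 1.5-fold, as were 15.9% of genes, and 0 were high, where 20% of genes were.

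In wound fibroblast SG the sum of Zeb2 was higher, 143 against 61.1, as were the sums of 53.3% of genes, and 0 members were lower past 1.5-fold, where 3.42% were. By number of summits the Zeb2 log2 ratio was 0.49, short of 1.5-fold. The member median was 0.02 and the all-gene median 0.63. Relative to it Twist1 (-1.15), Zeb1 (-1.14) and Snai2 (-0.85) were low past 1.5-fold, as were 15.4% of genes, and 0 were high, where 20.5% were. Twist1 and Zeb1 stood above 3.79% and 3.87% of genes. The 2 MEF comparisons share their WT list, so their values are not independent.

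**Figure D4:**
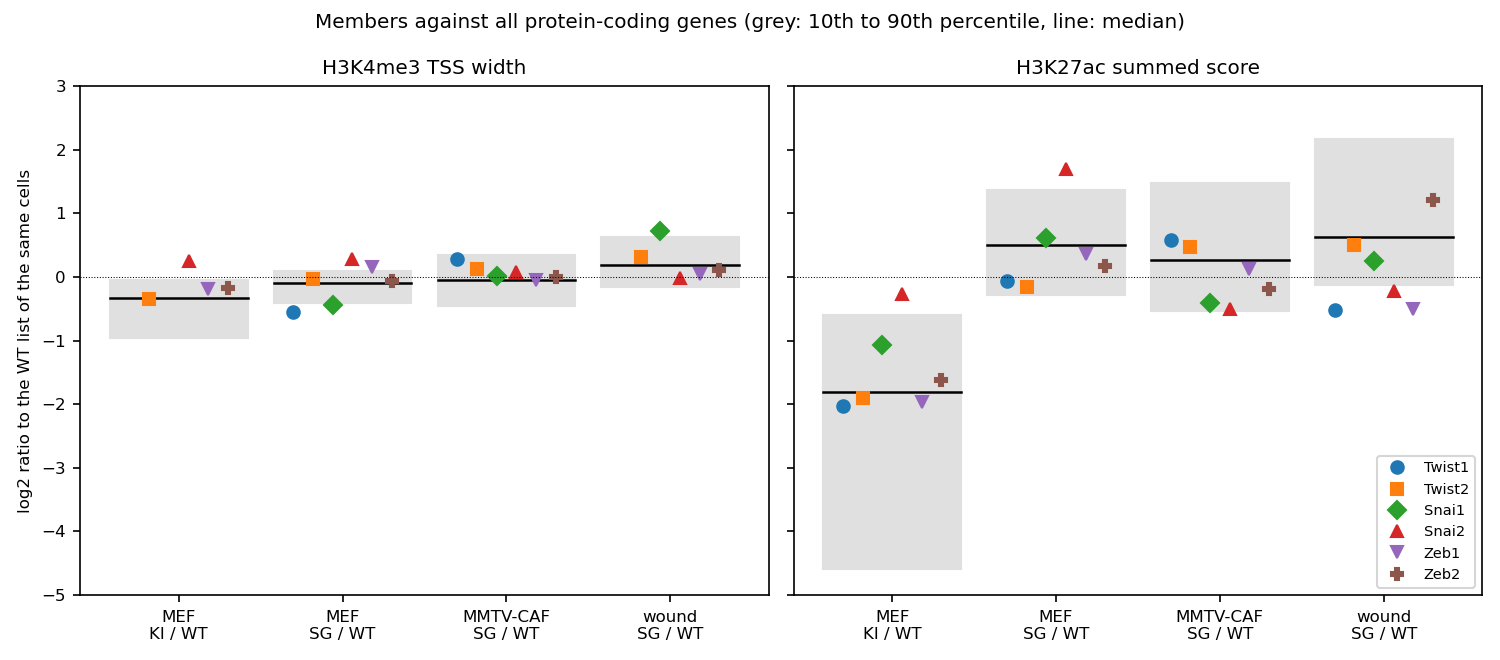
Log2 ratio of each KI or SG list to the WT list of the same cells (y axis) for the 4 comparisons (x axis), H3K4me3 width at left and summed H3K27ac score plus 1 at right, 1 symbol per gene. Grey boxes span the 10th to 90th percentile of all protein-coding genes and black lines their median. Snai2 stands at 1.69 in MEF SG, above its box.

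Single H3K27ac summits were followed from WT to the disrupted cells by a counterpart within 500 bp. In MEF KI 19 of 35 member summits were kept, 54.3% (95% Wilson interval 38.2 to 69.5%, for counting error only, since summits of 1 gene are not independent), against 44.3% of the whole list. In MEF SG it was 25 of 35, 71.4% (54.9 to 83.7%), against 68.2%. In MMTV-CAF SG it was 29 of 64, 45.3% (33.7 to 57.4%), against 63.9%, and in wound fibroblast SG 16 of 32, 50.0% (33.6 to 66.4%), against 67.7%. Zeb2 held 26 of the 64 MMTV-CAF summits, and each share compares 1 list with 1 list. With counterparts sought within 1000 bp the shares became 60.9% and 81.3%, against 75.2% and 83.9% of the lists. In the other direction, member summits without a WT counterpart within 500 bp were 8 of 27 in MEF KI (29.6%) and 9 of 34 in MEF SG (26.5%). They were 20 of 49 in MMTV-CAF SG (40.8%) and 9 of 24 in wound fibroblast SG (37.5%). The whole lists stood at 30.5%, 30.0%, 43.6% and 48.4%.

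Zeb2 supplied the largest group of MMTV-CAF summits without a counterpart, 15 of its 26. Twist2 lost 8 of 13, Zeb1 7 of 11, Snai1 3 of 9 and Snai2 2 of 3, and Twist1 kept both of its 2. Of the 35 summits without a counterpart, 31 scored below 20 and 10 had one between 500 and 1000 bp away. The strongest was that of Zeb2 at +7907 bp (-log10 p 72.9), with an SG summit of 65.9 at a distance of 600 bp. The summit of Snai1 at +3219 bp (57.1) had none closer than 2273 bp. In the Zeb2 intron, summits at +28498, +35669, +46029, +58661 and +60989 bp, scored 7.76 to 11.0, had none closer than 6431 bp. In wound-healing fibroblasts Twist1 kept 1 of 6 summits, and the strongest one without a counterpart, at +362 bp (54.2), had an SG summit of 52.2 at 724 bp. In MEF 8 member summits were without a counterpart in KI and SG alike, the strongest being that of Zeb1 at -346 bp (22.2).

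Stitching H3K27ac summits up to 12.5 kb apart and ranking the clusters by summed score gave a further view of these genes. The cluster that reached Snai1 was far longer than the gene in MMTV-CAF: it ranked 10 of 18506 in WT (69.5 kb, 31 summits) and 24 of 19061 in SG. It ranked 3208 of 18313 in MEF WT, 1270 of 13518 in MEF KI, 30 of 17687 in MEF SG, and 625 (WT) and 840 (SG) in wound fibroblasts. Where it spans other genes, its score is not that of Snai1 alone. Zeb2 ranked 168 in MMTV-CAF WT and 322 in SG, 839, 1530 and 991 in MEF WT, KI and SG, and 3825 (WT) and 2440 (SG) in wound fibroblasts. Clusters above the bend of the rank curve, called super-enhancers, touched Twist1, Twist2 and Zeb2 in MEF WT, Snai1 and Zeb2 in MMTV-CAF WT, and Twist1 and Snai1 in wound fibroblast WT, where 10.4%, 10.9% and 7.4% of all genes were touched. They touched 0 members in MEF KI, 4 in MEF SG (Twist1, Twist2, Snai1 and Zeb2), 3 in MMTV-CAF SG (Twist2, Snai1 and Zeb2) and Snai1 in wound fibroblast SG, where the shares were 4.07%, 11.5%, 10.5% and 11.9%. Snai2 and Zeb1 were touched in 0 of 7.

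Summed H3K27ac was compared between genes per kb of window. Twist1 was the highest member in MEF and wound fibroblast WT and Snai1 in MMTV-CAF WT. The lowest was Zeb1 in MEF and MMTV-CAF WT, and Zeb2 in wound fibroblast WT. Twist1 had 9.58, 6.13 and 6.49 score units per kb in MEF, MMTV-CAF and wound fibroblast WT, and Snai1 4.06, 13.0 and 5.15. Twist2 had 4.15, 3.10 and 1.88, Snai2 2.21, 3.71 and 2.03, and Zeb2 1.65, 4.02 and 0.397. Zeb1 had 0.489, 0.892 and 0.426. Zeb1 and Zeb2 have windows of 204 and 154 kb, so stretches without a summit weigh on their level.

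**Figure D5:**
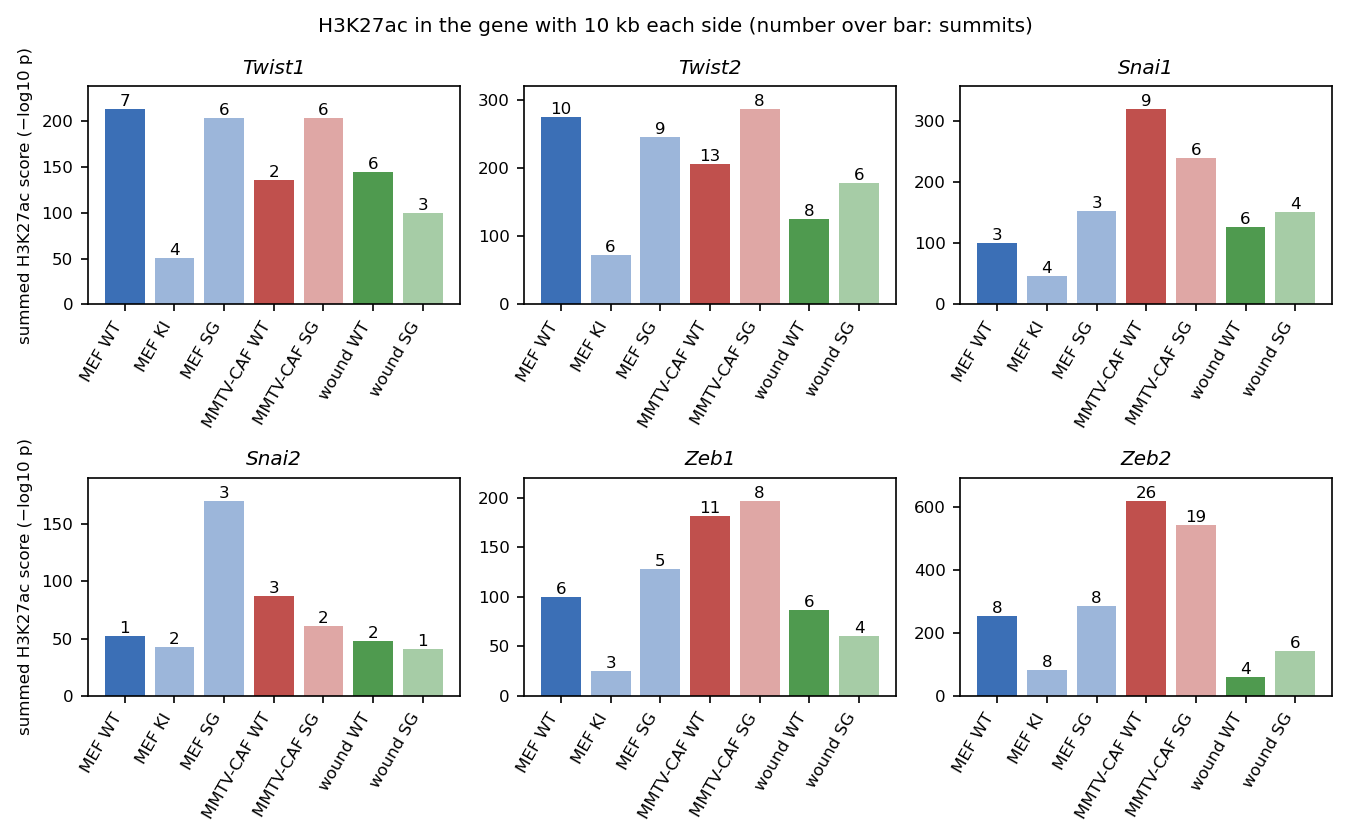
Summed -log10 p of the H3K27ac summits in each gene with 10 kb each side (y axis, own scale per gene) in the 7 lists (x axis), 1 list per bar, with the number of summits over the bar. Zeb2 reaches 618 in MMTV-CAF WT against 61.1 in wound fibroblast WT, and Snai2 is highest in MEF SG at 170.

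Zeb1, the relative of Zeb2 (ENSMUSG00000024238.5, mm9 chromosome 18, 5591858 to 5775465, plus strand), varied least in H3K4me3 width. The widths were 3906, 3421 and 4357 bp in MEF WT, KI and SG, 4883 (WT) and 4736 bp (SG) in MMTV-CAF, and 3561 (WT) and 3655 bp (SG) in wound fibroblasts, a range of 1.43-fold. The fold was 6.42, 3.67 and 6.71 in MEF, 9.08 (WT) and 9.32 (SG) in MMTV-CAF, and 7.53 (WT) and 9.39 (SG) in wound fibroblasts. A second, narrow H3K4me3 region about 12 kb into the gene, at its inner start sites, was listed at 1058 (WT) and 1142 bp (SG) in MMTV-CAF and at 441 (WT) and 711 bp (SG) in wound fibroblasts. MEF KI had 260 bp there, and MEF WT and SG had none. The antisense gene Gm10125 overlaps the main promoter, and its signal cannot be told apart from that of Zeb1.

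Zeb1 H3K27ac summits numbered 6, 3 and 5 in MEF WT, KI and SG, 11 (WT) and 8 (SG) in MMTV-CAF, and 6 (WT) and 4 (SG) in wound fibroblasts. The sums were 99.6, 24.9 and 128 in MEF, 182 (WT) and 197 (SG) in MMTV-CAF, and 86.6 (WT) and 60.4 (SG) in wound fibroblasts. The strongest WT summit was at +1083 bp in MEF (36.8) and +1239 bp in wound fibroblasts (21.2), but at the inner start sites, +12160 bp, in MMTV-CAF (37.2). The MMTV-CAF Prrx1 list had 3 summits in its introns, at +5969, +95071 and +148693 bp, with -log10 p of 4.78, 7.04 and 7.19. The last of these lay 373 bp from an H3K27ac summit in WT and 650 bp in SG. None lay in an H3K4me3 region, and the MEF and wound-healing lists had 0 at Zeb1.

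Between the WT lists, MMTV-CAF had the widest H3K4me3 region at every member except Twist1, which was wider in MEF. Snai1, Snai2 and Zeb2 were wider in MMTV-CAF than in MEF past 1.5-fold, with ratios of 1.57, 1.72 and 2.96, as were 29.0% of 11171 genes, with 2.13% lower and an all-gene ratio of 1.32. The Zeb2 value depends on the start site read: with that of the longest transcript alone its log2 ratio was 3.02 in place of 1.57, and 3.76 in place of 1.70 against wound fibroblast WT. After division by that ratio only Zeb2 was high past 1.5-fold, as were 8.9% of genes, and Twist1, with an undivided ratio of 0.674, was low, as were 5.59%. For H3K27ac the same comparison gave Snai1 3.18-fold, Zeb2 2.43-fold, Zeb1 1.81-fold and Snai2 1.67-fold higher and Twist1 0.641-fold, where 34.7% of genes were higher and 12.5% lower. The log2 ratio of Zeb1 (0.86) was 0.57 with lists of equal size, that of Snai2 (0.74) 0.56 in the gene body alone, and that of Twist1 (-0.64) 0.52 there, so that these calls ended. After division by the all-gene ratio, Snai1 and Zeb2 were high and Twist1 and Twist2 low, each at 20.9% of genes. Between wound fibroblast WT and MEF WT, Twist2 and Zeb2 were lower in H3K27ac, at 0.455 and 0.244 of MEF, as were 49.5% of genes, and 0 were higher, where 5.23% of genes were. By number of summits the log2 ratio of Twist2 was -0.29, short of 1.5-fold. After division Zeb2 was low (23.0% of genes) and Snai1 high (16.7%). In width 0 of the 5 comparable members passed 1.5-fold, where 6.02% of genes were lower and 4.11% higher, or 4.92% and 4.89% after division. Twist1 had no width ratio there. Between MMTV-CAF WT and wound fibroblast WT, Twist2, Snai1 and Zeb2 were wider past 1.5-fold, with ratios of 1.54, 1.82 and 3.25, where 36.5% of genes were wider and 2.22% narrower. With regions joined within 500 bp of a start, the Twist2 width in wound fibroblast WT was 5211 bp and its ratio 1.25, short of 1.5-fold. After division, among the 5 members with a ratio, Zeb2 alone was wider, as were 9.27% of genes, and 0 were narrower, where 6.36% were. Twist1 had no region over its start base in wound fibroblast WT and so no ratio. With regions joined it was 5358 against 7133 bp, and its log2 ratio after division was -0.88, narrower past 1.5-fold. The share of all genes on that divided measure was not computed. In H3K27ac all members but Twist1 were higher, where 69.8% of genes were higher and 4.43% lower. The call of Twist2 (log2 ratio 0.72) ended in the gene body alone (0.54), for summits scored at least 10 (0.37) and with lists of equal size (0.16), and that of Zeb1 (1.06) with lists of equal size (0.53). By number of summits those of Snai1 (0.51) and Snai2 (0.42) ended. After division Zeb2 was high (23.4% of genes) and Twist1 low (18.3%).

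Other genes of the pathway were read in the same way: 42 genes, of which 36 code for proteins and 6 for microRNAs. The 7 E and Id proteins, which pair with Twist factors or block that pairing, all had an H3K4me3 region in every WT list. The widest was Tcf4 (mean over WT lists 6194 bp) and the narrowest Id4 (2822 bp). All 5 corepressors through which Snail and Zeb act had one as well, from Ctbp2 (4311 bp) to Hdac1 (2248 bp), as had all 5 mesenchymal genes, from Sparc (8526 bp) to Cdh2 (4203 bp). Among 7 relatives, 5, 4 and 7 had a region in MEF, MMTV-CAF and wound fibroblast WT, with Foxc1 the widest (mean 4931 bp) and Tcf15, with a region of 578 bp in wound fibroblast WT alone, the narrowest.

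The epithelial opponents of these factors had an H3K4me3 region at 1 to 3 of 11 genes per WT list, while several carried H3K27ac in their windows. Of 11 epithelial opponents, among them the miR-200 family that targets Zeb1 and Zeb2 transcripts, 1, 2 and 3 had an H3K4me3 region in MEF, MMTV-CAF and wound fibroblast WT, where 53.2%, 52.5% and 54.9% of all coding genes had one. All of these regions were at coding genes. As 6 of the 11 are microRNA genes, shares of coding genes are not a like background for the list. Esrp1, Grhl2 and all 6 microRNA genes had none in any list, and Esrp2, a splicing regulator, was the widest (mean 3301 bp). An H3K27ac summit lay in the windows of 5 of the 11 in each WT list, against 61.6%, 62.1% and 58.3% of coding genes. These were Ovol1, Esrp1, Esrp2 and the neighbours Mir200c and Mir141, which share their summits, with sums in MEF WT of 81.1, 65.2, 138 and, for both microRNAs, 98.6. Of 7 epithelial targets, 2, 0 and 4 had a region, the widest on average being Crb3, with 1828 bp in wound fibroblast WT and no region in the other WT lists, and Cldn4, Cldn7 and Epcam had none in any list. Cdh1, Ocln and Cldn4 had H3K27ac in every WT list, with sums of 88.4, 33.3 and 11.5 in MEF WT.

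Of the 36 coding genes of the pathway, 6 of 16 comparable ones were narrower past 1.5-fold in MEF KI, where 25.1% of all genes were. The counts were 3 of 24 (MEF SG), 2 of 22 (MMTV-CAF SG) and 3 of 28 (wound fibroblast SG) in the remaining comparisons, with all-gene shares of 5.04%, 5.86% and 1.72%. For summed H3K27ac 22 of 28 genes were lower and 1 higher in MEF KI, 2 and 12 of 29 in MEF SG, 1 and 7 of 30 for MMTV-CAF, and 5 and 14 of 30 for wound fibroblasts. Over all genes the shares lower and higher were 90.3% and 3.04%, 6.02% and 43.7%, 9.28% and 29.9%, and 3.42% and 53.3%. After division by the all-gene median ratio H3K27ac was lower at 6 genes and higher at 12 in the KI comparison, at 5 and 3 in that of MEF SG, 2 and 6 for MMTV-CAF, and 7 and 7 for wound fibroblasts, and the narrower genes numbered 2, 3, 2 and 3. The all-gene shares then were 30.1% and 26.2%, 15.9% and 16.1%, 15.9% and 20%, and 15.4% and 20.5% for H3K27ac, and 11.3%, 3.77%, 4.81% and 3.27% for narrower regions. Past 1.5-fold lower on both marks were Tcf3, Id1, Id3, Id4, Vim and Sparc in MEF KI, as were 23.6% of all genes, and Sparc in wound fibroblast SG, as were 0.257%. Relative to the all-gene median, the H3K27ac log2 ratios of Tcf3, Id1, Id3, Vim and Sparc in MEF KI lay above 0, the lowest being 0.10 for Sparc, and that of Id4, listed at 0 in KI, lay below it. Sparc, a matrix glycoprotein, went from 9265 to 5112 bp in width and from 402 to 267 in summed H3K27ac in wound fibroblast SG, against an all-gene rise on both marks, and from 6805 to 3355 bp and from 382 to 116 in MEF KI. A Prrx1 summit lay in the window of 5 (MEF), 12 (MMTV-CAF) and 13 (wound fibroblasts) of the 42 genes, where the all-gene shares were 7.06%, 22.2% and 16.8%. Those shares are of coding genes of any length and rise with length. In MMTV-CAF 10.9% of genes with a window at most that of Snai1 had a summit, and 43.0% with one at least that of Zeb2. No share matched for length was computed, and Tcf4 and Tcf12 held 10 of the 22 pathway summits in MMTV-CAF.

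The genes most like each member across the 7 H3K27ac lists, by the mean absolute difference of log2 summed score after centring each gene on its own mean, were Pdik1l (0.10) and Tmem69 (0.12) for Twist1, Tulp3 and Atg5 (0.07 each) for Twist2, and Rhebl1 and Ube2f (0.09 each) for Snai1. For Snai2 they were Fam20a (0.15) and Zfp455 (0.19), for Zeb1 Mllt1 and Gm9920 (0.12 each), and for Zeb2 Hist1h4j (0.16) and Capza2 (0.22). The median over the 10797 genes compared was 0.38 to 0.72 (10796 genes for Zeb1). None of the members was among the 2 nearest genes of another.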

How the data were processed

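ChIP-seq peak lists of 17 libraries were used, grouped by the sample titles. Per the labels and methods, trimming used Trimmomatic, Bowtie placed reads on mm9, Picard dropped duplicates, and MACS2 called peaks against input. For Prrx1 the methods also name an IgG control, and which control its lists were called against is not stated. The H3K27ac and Prrx1 lists deposited by the authors give 1-bp summits with a -log10 p. The deposited H3K4me3 lists give broad regions with their -log10 p, -log10 q and fold over input, a ratio. A deposited integer score column was not used. The lowest -log10 p was 5.00 for H3K27ac and 3.00 for Prrx1, with 9.88% to 22.0% of Prrx1 summits below 5. Whether each Prrx1 list pools the duplicate ChIPs of the study is not stated. Deposited scores depend on depth, so ratios between lists are given beside the same ratio over all protein-coding genes.

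Genes came from GENCODE vM1 on NCBIM37, the same build; 0 of 462996 intervals passed a chromosome end. The H3K4me3 width is that of the widest region over any annotated start site. H3K27ac is the summed -log10 p of summits in the body with 10 kb each side, plus 1 in ratios. A gene was called past a ratio of 1.5. Genes with no region over a start site in 1 of the 2 lists have no width ratio. With 1 library per group there is no replicate check and no p-value. The homeodomain core TAATTA, the AP-1 site TGANTCA and the E-box CAGGTG were searched on both strands, leaving out chromosome 18, in 100 bases to each side of a summit and in promoters read by coordinates from the mm9 genome. The scripts were tested on simulated data. The members, the gene lists and the rules for named summits and genes were chosen with earlier results of these data known: all 6 members, all their Prrx1 summits, the strongest WT H3K27ac summits and those absent from every disrupted list, the widest and narrowest pathway gene per role, pathway genes past 1.5-fold on both marks, and the 2 most similar genes. Of the summits absent from every disrupted list, the text gives counts and the strongest, with a choice made after values were seen. The versions were 3.11.15 for Python, 2.3.3 for pandas and 2.4.6 for numpy, with matplotlib at 3.10.9 and scipy at 1.17.1. Alternatives were other windows, thresholds, distances, list sizes and start sites.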

Additional observations from a re-analysis of the deposited data

Results flagged for a closer look

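Snai2 H3K27ac moved past 1.5-fold in opposite directions between kinds of fibroblasts once each ratio was divided by that of the median gene. The log2 ratio of SG to WT was 1.19 (MEF), -0.77 (MMTV-CAF) and -0.85 (wound-healing fibroblasts). Each value compares 1 list with 1 list, and the difference between the kinds of cells was not tested. The summed scores behind it were 170 against 51.9, 61.2 against 87.4, and 41.0 against 47.8, from 3 summits or fewer per list.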

How the results depend on the processing

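The median H3K4me3 ratio over the members moved by less than 1.5-fold, the spread allowed for want of replicates, in 24 of 24 alternative values of the genotype comparisons, as did all 124 values of single members. Cases without a main width ratio, Twist1 and Snai1 in MEF KI and Twist1 in wound fibroblast SG, are not among the 124. Small medians still changed sign, that of MEF KI from -0.18 to 0.15 after division and 0.044 for regions with a -log10 p of at least 10, that of MEF SG from -0.05 to 0.040 after division, that of MMTV-CAF SG from 0.05 to -0.026 for summed length, and that of wound-healing SG from 0.10 to -0.077 after division. Between WT lists 91 of 96 single widths held, with Twist1 against wound fibroblast WT left out in the same way. One of these alternatives, joining regions within 500 bp of a start site, was chosen after seeing the data. For H3K27ac, 26 of 28 medians and 143 of 167 single values held in the genotype comparisons, and 20 of 21 and 108 of 126 between WT lists. Here every H3K27ac value after division used the ratio of the median gene with a summit in both lists. Such values differ from those divided by the all-gene ratio in the Results. The exceptions among medians were MMTV-CAF against wound-healing WT, 0.090 after division, and MEF KI, -0.12 after division by the ratio of the median gene with a summit in both lists, and -0.33 for the number of summits. Among ratios past 1.5-fold, signs turned in MEF KI for Snai1 (0.57 after division, 0.32 for the number of summits, 4.46 in the gene body, where WT is listed at 0) and Zeb2 (0.028 after division). Snai2 there, at -0.26, was at 1.38 after division and 0.58 for the number of summits. Between WT lists they turned for Twist1 in MMTV-CAF against MEF (0.52 in the body), and after division for Twist2 (-0.15) and Snai2 (-0.011) in MMTV-CAF against wound-healing fibroblasts. Of 174 alternative values of single member ratios past 1.5-fold, 18 fell short of it or turned, 17 of them for H3K27ac. The 174 do not set undivided ratios against division by the all-gene ratio, whose effect the Results give. Among them, 3 width values after division repeat the main value and could not change. The kept share of summits became 60.9% within 1000 bp and 58.7% for WT summits scored at least 10 for MMTV-CAF SG, and 81.3% within 1000 bp for wound-healing SG. Prrx1 summits at the members, 8 and 4 in MMTV-CAF and the wound list, numbered 1 and 0 where only scores from 10 upward were read, and the wound list had 2 in gene bodies alone. No paired analysis was possible because each group has 1 library and no test was made. Depth is unknown, and a weaker list hides weak summits.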
